A study of Mus musculus with 18 samples.

Results

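Cytosolic ribosomal protein genes encode the protein parts of the ribosome that translates nuclear messenger RNA. They were taken here as the genes whose symbol starts with Rpl or Rps followed by a digit, together with Rpsa, Rplp0, Rplp1 and Rplp2. Of 116 symbols of this form, 19 marked as pseudogenes and 11 that name S6 kinases or a binding protein of Rps19 were left out, which left 86 members among the 22019 genes of the table. The members comprised 31 proteins of the small subunit, 43 of the large subunit, 3 of the stalk of the large subunit, which binds translation factors, and 9 paralogs. The first 77 are called core members below.

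The study asked how the LINC complex, which links the nucleus to the cytoskeleton, affects the response of the transcriptome to the rigidity of the substrate. Polyadenylated RNA was sequenced from NIH 3T3 Tet-ON cells, a line of mouse embryonic fibroblasts, on fibronectin-coated polyacrylamide gels after 48 hr with 1 μg/ml doxycycline in all 6 groups. SUN1L cells carried an inducible lumenal domain of SUN1 kept in the endoplasmic reticulum (SS-HA-SUN1L-KDEL), which disrupts the LINC complex, and KDEL cells carried SS-GFP-KDEL as the control. The groups of 3 libraries, named by serial number, were KDEL cells on 1 kPa (libraries 4, 16 and 28), SUN1L cells on 1 kPa (3, 15 and 27), KDEL cells on 308 kPa (8, 20 and 32), SUN1L cells on 308 kPa (7, 19 and 31), stiff-gel KDEL cells given the ROCK inhibitor Y27632 at 25 μM (Y27; 12, 24 and 36) and stiff-gel KDEL cells given the myosin inhibitor blebbistatin at 10 μM (10, 22 and 34). The SUN1L and KDEL cells are separate stable lines made by retroviral transduction, and the KDEL line was also enriched by sorting, so line and construct cannot be told apart. By serial number the libraries form 3 runs, with numbers from 3 to 12 in run 1, from 15 to 24 in run 2 and from 27 to 36 in run 3, and every group has a library in each run. Whether a run marks a day of culture or of preparation is not stated in the sources used here.

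The values are signals from AvadisNGS on a linear scale, which the authors scaled by trimmed means of M-values, set to 1 where lower and did not divide by transcript length. An estimated 12670000 to 19460000 read pairs lay behind a library, and 1 read pair was worth 1.70 to 2.49 signal units, so counting error was small for nearly all members. Sun1, the gene of the construct, was higher in SUN1L cells by 4.32 on the log2 scale on 1 kPa and 4.06 on 308 kPa. The labels of library 34 conflict, since its source name and column heading give Y27 while its characteristics give blebbistatin, and the medians and gene differences named with blebbistatin are given with and without it. In libraries 3, 7 and 8, the median log2 deviation of 20 cell division markers from their means over all libraries was -2.80, -2.52 and -2.19, against 0.10 to 0.91 in the other 15. Of the fibroblast markers, 12 of 12 were measured and held 1.67% to 2.76% of the signal of a library. The summed signal of epithelial, immune, endothelial or muscle markers was 36.7 to 1167 in a library, and none of these lists held more than 0.00344% of any library.

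A ribosome holds each of its proteins essentially once, with the stalk proteins Rplp1 and Rplp2 in more copies, and cells make the messages of these proteins in matched amounts. Many of these messages begin with a C followed by a run of pyrimidines, the 5′ terminal oligopyrimidine (TOP) motif, through which mTOR and the protein Larp1 control their translation. The genes are among the most strongly transcribed of a growing fibroblast, and their dosage matters, since loss of 1 copy of several of them causes Diamond-Blackfan anaemia in humans.

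RefSeq promoter windows on GRCm38.p6 matched 65 of the 86 members. The start regions below show the pyrimidine run at Rps6, whose protein is the substrate of the S6 kinases, at the stalk gene Rplp2, at Rps27, Rps10 and Rps18 and at the paralog Rpl22l1, and the shorter runs of Rps28 and Rps2. They were chosen because the values described further on turn on these genes. Each sequence is on the strand of the gene, and the 11th of its 30 bases is the annotated transcription start. Capitals mark the longest run of C and T that lies in the window shown.
Rps6 (chr4:86857348-86857377, minus strand): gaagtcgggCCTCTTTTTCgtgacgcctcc
Rplp2 (chr7:141447641-141447670, plus strand): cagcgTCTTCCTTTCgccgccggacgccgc
Rps27 (chr3:90213629-90213658, minus strand): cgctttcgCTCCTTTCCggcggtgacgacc
Rps10 (chr17:27635225-27635254, minus strand): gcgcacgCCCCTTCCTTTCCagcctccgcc
Rps18 (chr17:33955646-33955675, minus strand): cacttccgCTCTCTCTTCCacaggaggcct
Rps28 (chr17:33824543-33824572, minus strand): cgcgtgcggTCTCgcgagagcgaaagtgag
Rps2 (chr17:24720053-24720082, plus strand): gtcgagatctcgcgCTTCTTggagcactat
Rpl22l1 (chr3:28805498-28805527, plus strand): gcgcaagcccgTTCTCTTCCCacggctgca

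A run of at least 8 pyrimidines within 10 bases of the annotated start was found in 39.0% of the 77 windows of members, against 14.02% of all 32851 windows in the table. At Rps6 the run was 10 bases long and began 1 base before the annotated start, and at Rps10, with 13 bases, it began 3 bases before it. Rps28 had a run of 4 bases and Rps2 one of 6 that began 4 bases after the start. The motif CCGGAAG, the core bound by ETS factors such as GABP, was found on either strand in 35.1% of the windows of members and 8.86% of all windows. These matches describe the letters of the windows and not sites in use.

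The members were among the most abundant messages of these cells. The mean signal exceeded 1000 for 82 of the 86, and 76 lay above the 95th percentile of the 16021 genes tested, whose median was 590. A mean under 20 was found for 4 members, all of them paralogs. Rpl10l, a retrogene used in the testis, was at the lowest value in every library, Rps4l averaged 1.22, Rpl3l, a form of Rpl3 found in muscle, averaged 4.86, and Rps27rt averaged 17.9. Compared as mean signal per kb of transcript, Rps6 was highest with 101030, followed by the stalk base Rplp0 with 83386, Rpl32 with 72261, Rplp1 with 70436, Rps12 with 66461 and Rps2 with 63900. The core members with the lowest signal per kb were Rps20 with 6712, Rpl37 with 8505 and Rpl22 with 9067. The paralogs Rps27l, a target of p53, with 12774, Rpl36al with 10285 and Rpl39l with 10123 per kb were close to these, while Rpl22l1 had 6057 and Rpl7l1, which acts in ribosome assembly, had 1759. Transcript length was known for 84 members, and reads shared with processed pseudogenes or paralogs make single levels uncertain.

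The ribosomal protein genes took 4.80% to 8.65% of the signal of a library. Except with blebbistatin, this share ranged more widely among the libraries of a group than among the group means. In KDEL cells on 1 kPa the share was 5.58%, 5.04% and 6.42% in libraries 4, 16 and 28, a mean of 5.68% ± 0.695 (SD, n = 3). In SUN1L cells on 1 kPa it was 7.31%, 5.64% and 6.78%, a mean of 6.58% ± 0.854 (SD, n = 3). The 2 groups overlapped, since library 15 lay below library 28.

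On 308 kPa the spread was wider. KDEL cells had 7.79%, 4.80% and 6.97% in libraries 8, 20 and 32, with a mean of 6.52% ± 1.54 (SD, n = 3), and SUN1L cells had 6.66%, 5.46% and 8.65% in libraries 7, 19 and 31, with a mean of 6.92% ± 1.61 (SD, n = 3). These groups held both the lowest library of the series, 20, and the highest, 31. With Y27 the share was 5.98%, 5.52% and 6.88%, and with blebbistatin it was 5.99%, 5.39% and 6.20%. The means of 6.13% ± 0.695 and 5.86% ± 0.420 (SD, n = 3 each) lay within the range of untreated KDEL cells on 308 kPa. In bulk RNA, fewer cells of a kind and less RNA per cell cannot be told apart.

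**Figure D1:**
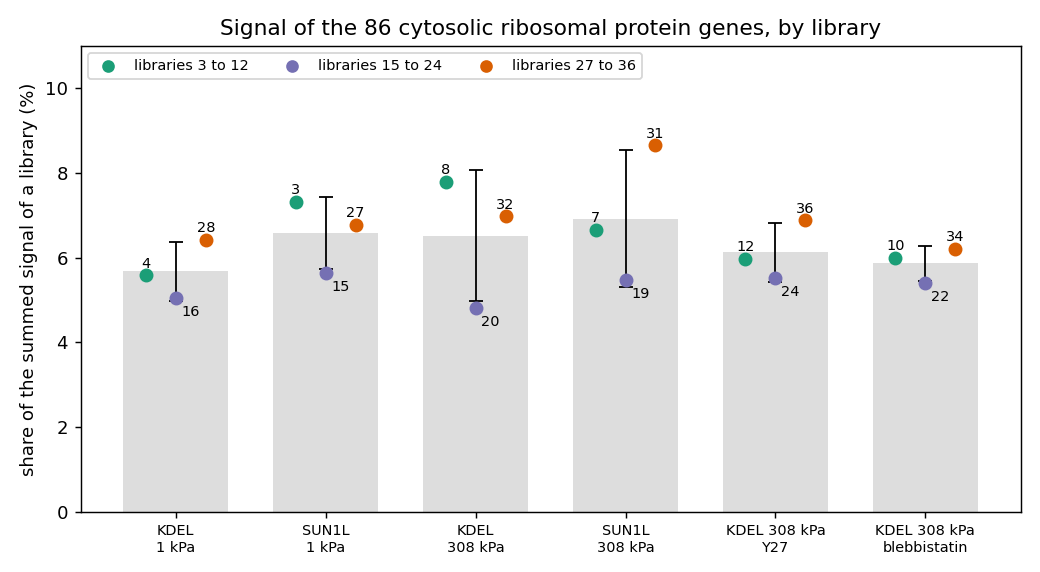
Share of the signal of each library taken by the 86 ribosomal protein genes, in percent, for the 6 groups. Bars are group means with SD (n = 3) and points are single libraries coloured by run of serial numbers. The libraries of run 2, between 4.80% and 5.64%, are the lowest of their group in all 6 groups.

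The core members moved together from library to library. Of the variance of their log2 signals over the 18 libraries, 82.2% lay on a single component and 7.64% on the next. The SD of a core member within a group was 0.267 on the log2 scale, and it was 0.083 once the mean of all core members in each library had been subtracted. The steadiest against that mean were Rpl19, Rpl34 and Rps16, with SDs over the 18 libraries of 0.033 to 0.041. Those that departed most were Rps2 (0.191), Rpl6 (0.186), Rps27 (0.179), Rpl41 (0.174) and Rpl36 (0.169). Rps6 shows the common course.

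Rps6 had a signal of 79738, 68560.3 and 91147 in KDEL cells on 1 kPa, and of 88713, 70629 and 87169 in SUN1L cells on 1 kPa. On 308 kPa it had 112564, 70251 and 109232 in KDEL cells and 89934, 76779.8 and 131662 in SUN1L cells. With Y27 it had 85641, 74822 and 98152, and with blebbistatin 88517, 80813 and 92348. The second library of every group, that of run 2, was its lowest, and the groups overlapped throughout. Rplp0 was also lowest in run 2 in every group. It had 82463, 70702 and 88411 in KDEL cells and 103007, 84279 and 99935 in SUN1L cells on 1 kPa, and 106223, 59938 and 89776 in KDEL cells and 83596, 68772 and 106032 in SUN1L cells on 308 kPa. With Y27 it had 85232, 75639 and 96738, and with blebbistatin 82393, 70704 and 86137.

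**Figure D2:**
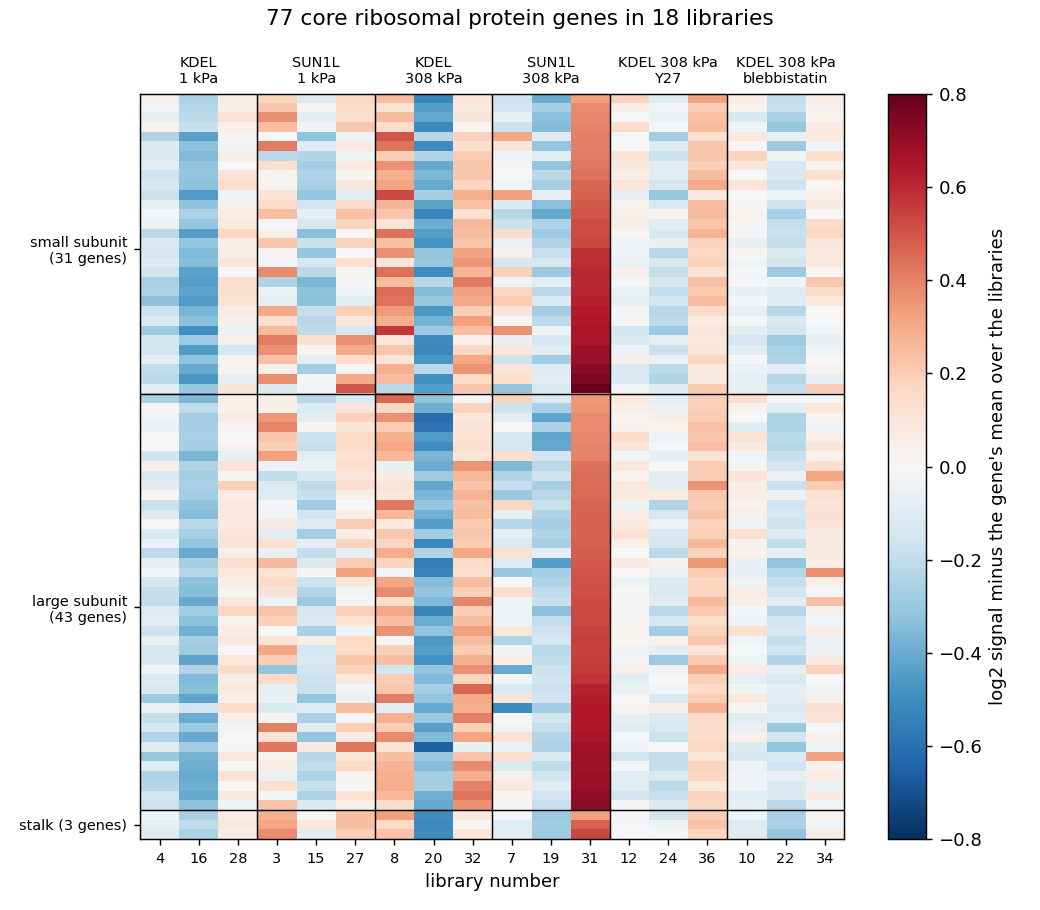
Log2 signal of the 77 core members relative to the mean of each gene over the 18 libraries, one line per gene and one column per library, with libraries ordered by group. Columns are of nearly one colour, with library 31 above the mean (median 0.52) and library 20 below it (median -0.40) for nearly all genes.

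Run 2 held the lowest of the 3 libraries for 77 of 77 core members in KDEL cells on 1 kPa, 73 in SUN1L cells on 1 kPa, 77 in KDEL and 68 in SUN1L cells on 308 kPa, 69 with Y27 and 74 with blebbistatin. Run 3 held the highest library for 77 core members in KDEL cells on 1 kPa, 77 in SUN1L cells on 308 kPa, 77 with Y27 and 60 with blebbistatin. In the other 2 groups, the highest library was that of run 1 for 45 core members in SUN1L cells on 1 kPa (library 3) and for 47 in KDEL cells on 308 kPa (library 8), both among the libraries with few division markers. As a share of the library the members held 6.55% ± 0.861 in run 1, 5.31% ± 0.321 in run 2 and 6.99% ± 0.866 in run 3 (SD, n = 6 each).

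This order was seen first and then fitted, with group as a term in limma over the 18 libraries, so the test is not independent of the choice. In run 3 against run 2, 79 of the 85 members tested were higher, with adjusted p-values (Benjamini-Hochberg) below 0.05, a median of 0.43 on the log2 scale and 0 of them 2-fold. Of all genes, 19.1% passed this test and 9.45% passed it as higher. Rpl12, which is part of the base of the stalk, differed by 0.54 and Rps2 by 0.53, and the smallest difference of a core member was that of Rpl39, at 0.26 with an adjusted p of 0.070. The other 5 that did not pass were the paralogs Rps27l, Rpl22l1, Rpl3l, Rps27rt and Rps4l. Without libraries 3, 7 and 8, 80 passed, against 30.3% of all genes. Run 1 was less clear. In run 1 against run 2, 25 passed (13.6% of all genes, 5.55% as higher), but 0 did without libraries 3, 7 and 8 (1.95% of all genes). In run 3 against run 1, 16 passed (38.5% of all genes, 20.8% as higher) and 4 without these libraries (16.7%). Single libraries also decided these counts. Run 1 against run 2 gave 1 member without library 3, 19 or 20, 3 without library 8, 6 without library 15, 16 without library 10 or 16 and 47 without library 31. Run 3 against run 1 gave 7 without library 7, 8 without library 31 and 10 without library 32, while run 3 against run 2 gave 62 to 80 with any library left out.

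Other lists of the translation machinery followed the runs in part, as medians over a list of the log2 deviation from each gene's mean over the libraries. Core members averaged 0.03 ± 0.130 in run 1, -0.23 ± 0.110 in run 2 and 0.19 ± 0.177 in run 3 (SD, n = 6 each). Translation factors with a TOP motif, 18 genes such as Eef1a1, Eef2 and Tpt1, averaged -0.04, -0.15 and 0.20. For 77 ribosome biogenesis factors the averages were -0.04, -0.09 and 0.15, and for 77 proteins of the mitochondrial ribosome, which has no part in common with the cytosolic one, they were -0.11, -0.11 and 0.21. The 803 other genes under 1 kb of transcript averaged -0.08, -0.04 and 0.13, and the 1507 genes of at least 4 kb averaged 0.05, 0.06 and -0.10. Transcript length thus moved with run 3, the members being short with a median of 728 bases against 2213 over the tested genes, and its part in the result was not tested.

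Libraries 3, 7 and 8 set the cytosolic list apart from the others. In library 8 the median was 0.25 for core members, against 0.02 for TOP translation factors, -0.01 for the mitochondrial ribosome and -0.07 for other short genes. In library 3 it was 0.11 for core members, against -0.19, -0.19 and -0.16, and in library 7 it was -0.03 against -0.18, -0.28 and -0.23. Within the core, Rpl6, Rpl41 and Rps2 had the lowest mean over these 3 libraries, and they were picked after their values were seen. Relative to the mean of the core members, Rpl6 stood at -0.42, -0.37 and -0.40 in libraries 3, 7 and 8 and between 0.01 and 0.14 in the other 15. Rpl41 stood at -0.24, -0.47 and -0.33 against -0.06 to 0.18, and Rps2 at -0.23, -0.29 and -0.46 against -0.07 to 0.39. None of these genes overlapped between these libraries and the rest, which their choice by the lowest mean favours. The share of all genes that stood apart in this way is not given here. The part of the low division markers in this was not tested.

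**Figure D3:**
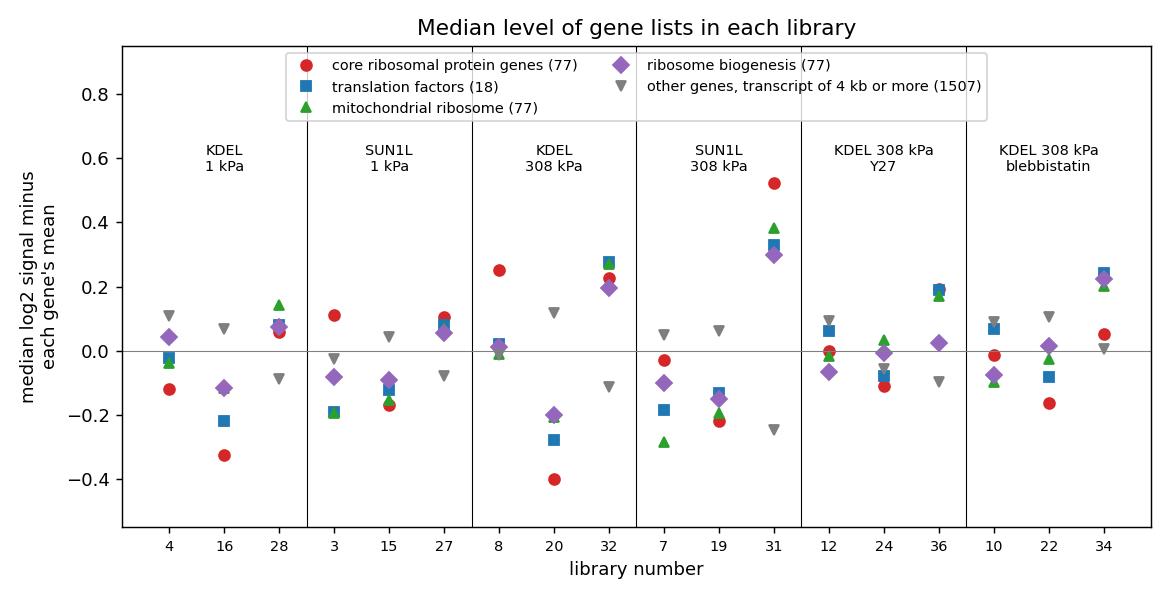
Median log2 deviation of each gene list from its genes' means over the 18 libraries, one point per library, ordered by group. The core ribosomal protein genes range from -0.40 in library 20 to 0.52 in library 31, and in libraries 3, 7 and 8 they lie above the TOP translation factors and the mitochondrial ribosome.

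No comparison of groups called a ribosomal protein gene. A call needed an adjusted p under 0.05 in limma and at least a 2-fold difference, and 0 of 85 members met it in any of 7 comparisons or in the interaction of SUN1L with rigidity. The number of members at an unadjusted p under 0.05 was also 0 in each. For the difference among the 6 groups over all 18 libraries, 0 members passed an adjusted p under 0.05, against 0.15% of all genes, and 0 an unadjusted one, against 8.73%. The smallest p of a member was that of Rps27l, at 0.0845 (limma, adjusted p 0.671), followed by Rps27 at 0.135 and Rpl22l1 at 0.145. The 95% intervals reached 0.54 on the log2 scale to either side for a typical core member in the comparisons over 12 libraries, which is 1.45-fold, and 0.46, or 1.38-fold, for the inhibitors over 9 libraries. With the runs as a block they reached 0.32 (1.25-fold) and 0.33 (1.26-fold).

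With the runs as a block, 6 members had an unadjusted p under 0.05 for SUN1L on 1 kPa, against 14.1% of all genes, and 0 on 308 kPa, against 5.92%. For rigidity they numbered 10 in KDEL cells (5.37% of all genes) and 8 in SUN1L cells (5.52%), and 0 in the interaction (2.08%). The inhibitors gave 0 with Y27 (10.5%), 0 with blebbistatin (7.57%) and 0 between them (5.17%), and the difference among the 6 groups gave 12 (20.5%). At an adjusted p under 0.05 there were 0 members with this block in each of these (limma), against 0.106% of all genes for SUN1L on 1 kPa, 0.0811% on 308 kPa, 2.53% for the 6 groups and 0% in the others.

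**Figure D4:**
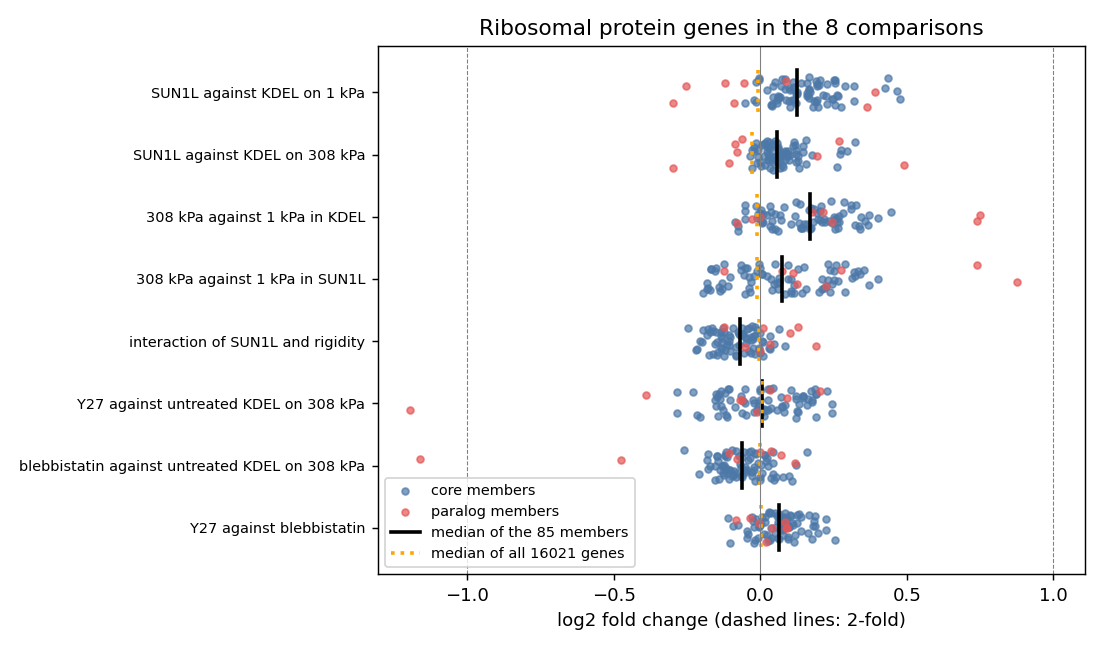
Log2 fold changes of the 85 tested members in 7 comparisons and in the interaction of SUN1L with rigidity, one point per gene, from limma on log2(signal + 1). Core members stay within 0.48 to either side of 0, and the points farther out are the scarcely expressed paralogs Rpl3l and Rps27rt.

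The first comparison asks what SUN1L changes on the same substrate. On 1 kPa, 74 of 85 members were higher and 11 lower in SUN1L than in KDEL cells, with a median log2 difference of 0.13 against -0.01 over all genes, and 0 were called (0.0874% of all genes; 4.54% had an unadjusted p under 0.05). Among the small-subunit genes 29 of 31 were higher, with a median of 0.14, and among the 46 genes of the large subunit and stalk 42, with a median of 0.16. Without libraries 3, 7 and 8 the median over the members was 0.09, with 76 higher, and with 1 library left out it ran from 0.04 without library 16 (52 higher) to 0.23 and 0.24 without library 28 or 15 (81 higher in each). Within the runs, the median over the core members was 0.23 (69 of 77 higher), 0.15 (76) and 0.06 (51). The division markers differed in the opposite direction on 1 kPa, with a median of -1.34 and 20 of 20 lower, none past the test, and most of this lay in library 3, since without it the median was -0.31.

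In every SUN1L library on 1 kPa, 4 members were higher than in any KDEL library, against 6.65% of all genes. Rps10, which joins the head of the small subunit and is a Diamond-Blackfan anaemia gene, had a signal of 17718, 14863 and 19629 in KDEL cells and 26525, 20369 and 25283 in SUN1L cells. The log2 difference was 0.47 ± 0.26 (SE; limma, adjusted p 0.93), with all SUN1L libraries above all KDEL libraries. Rps18, also of the head, had 19551, 15939.7 and 19709 against 27943, 22032 and 26845. Its groups did not overlap either, with a difference of 0.48 ± 0.25 and an adjusted p of 0.93 in limma.

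Rps28, a small protein near the exit of the message channel, had 11299, 10205 and 12841 in KDEL and 16666, 13689 and 16084 in SUN1L cells, which did not overlap. Rpl36, a protein of the large subunit, had 8827, 7772 and 9483 against 12626, 9859 and 12687, again apart. The differences were 0.44 ± 0.23 and 0.43 ± 0.25 (SE), with adjusted p-values of 0.93 in limma for both. In the other direction, Rpl22l1, the paralog of the large-subunit protein Rpl22, was lower in every SUN1L library. It had 2921, 2871 and 3376 in KDEL and 2300.4, 2756 and 2639 in SUN1L cells, a difference of -0.25 ± 0.15 (SE; limma, adjusted p 0.93), and 7.86% of all genes were lower in this way. Rpl22 itself overlapped, with 9546, 8515 and 11285 against 12150.1, 9049 and 11792.

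On 308 kPa, 70 members were higher and 15 lower in SUN1L cells, with a median of 0.06 against -0.03 over all genes, and 0 were called (0.0624% of all genes; 2.53% at an unadjusted p under 0.05). None had groups that did not overlap, against 1.95% of all genes higher and 2.33% lower. The largest differences were those of Rpl36 at 0.32 ± 0.25 and Rps10 at 0.29 ± 0.26 (SE). Rpl36 had 10179.7, 6018 and 9066 in KDEL and 9112, 7942 and 15052 in SUN1L cells, and Rps10 had 24337, 14632 and 22946 against 22669.9, 19237 and 34594. In both the spread within a group was wider than the difference. The sign turned between runs, with core medians of -0.28 in run 1 (0 of 77 higher), 0.17 in run 2 (77) and 0.29 in run 3 (77). Without library 20 the median over the members was -0.16, without library 31 it was -0.15, without library 7, 8, 19 or 32 it was 0.12 to 0.21, and without libraries 3, 7 and 8 it was 0.23 with 84 of 85 higher.

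The 4 of 85 members that were higher in every SUN1L library on 1 kPa, against 6.65% of all genes, lie on chromosome 17. Rps10 is at chr17:27630422-27636629, Rps18 at chr17:33951999-33956001 and Rps28 at chr17:33819027-33824562, all on the minus strand, and Rpl36 is at chr17:56613395-56614243 on the plus strand (GRCm38 positions in the table). What follows was computed after these values were seen. Over both rigidities, the SUN1L minus KDEL difference had a median of 0.36 over the 6 core members of chromosome 17 (Rps2, Rps10, Rps18, Rps28, Rpl36 and Rpl10a) and of 0.09 over the 71 elsewhere. The 6 were at 0.43 on 1 kPa and 0.27 on 308 kPa, and the 71 at 0.12 and 0.05. Since 4 of the 6 were picked on 1 kPa, their medians there and over both rigidities are not independent of that choice. The paralogs Rpl7l1 and Rpl3l also lie on chromosome 17. Relative to the mean of the core members and over both rigidities, SUN1L minus KDEL was 0.03 for Rpl7l1 and -0.41 for Rpl3l, which rests on few read pairs. On that scale the 6 core members ran from 0.11 for Rpl10a to 0.27 for Rps10.

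Genes of chromosome 17 that are not members differed in the same direction. Over 317 of them with a mean signal of at least 1000 the median was 0.19, on 1 kPa as well as 0.18 on 308 kPa, while over 6125 such genes of other chromosomes it was -0.06. In single libraries, the median of chromosome 17 minus that of the other chromosomes was 0.22, 0.12 and 0.23 in SUN1L cells on 1 kPa and 0.11, 0.07 and 0.27 on 308 kPa. In the 12 libraries of KDEL cells it lay between -0.13 and -0.04, so that the lines did not overlap. By position, the median was -0.05 and -0.06 in the first and second 10 Mb of the chromosome, 0.21 to 0.24 from 20 to 60 Mb, where Rps2, Rps10, Rps18, Rps28, Rpl36 and Rpl10a lie, and 0.12 to 0.15 from 60 to 90 Mb.

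Relative to the mean of the core members, Rps10 stood at 0.26, 0.15 and 0.19 in SUN1L cells on 1 kPa and at 0.18, 0.13 and 0.22 on 308 kPa. In the 12 libraries of KDEL cells it lay between -0.14 and 0.01. Rps18 stood at 0.25, 0.18, 0.20, 0.13, 0.12 and 0.15 in the same 6 libraries and between -0.20 and -0.02 in the others. Both were higher in all 6 SUN1L libraries than in all 12 of KDEL cells, which held for 0.0811% of all genes on this scale. Both had been picked because their groups did not overlap on 1 kPa, which favours this separation, and the scale was added after the data were seen. On the scale of the authors 0 members separated the 6 libraries from the 12, against 0.212% of all genes as higher and 0.275% as lower. Rpl10, a late-joining protein of the large subunit encoded on the X chromosome, was lower in all 6, at -0.20 to -0.02 against -0.02 to 0.14 with almost no gap, which held for 0.206% of all genes. Subtracting the core mean takes out the course that core members share, and their SD within a group fell from 0.267 to 0.083. Other genes share that course at most in part, so the shares of all genes on this scale are not a like comparator.

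Rps28 and Rpl36 overlapped on this scale. Rps28 stood at 0.30, 0.29 and 0.25 in SUN1L cells on 1 kPa but at -0.03, 0.08 and 0.12 on 308 kPa, against -0.19 to 0.04 in KDEL cells. Rpl36 stood at 0.31, 0.22 and 0.32 on 1 kPa and at -0.02, -0.03 and 0.14 on 308 kPa, against -0.28 to 0.12. In a limma fit over both rigidities the differences relative to the core mean were 0.27 ± 0.12 for Rps10, 0.26 ± 0.12 for Rps18, 0.24 ± 0.11 for Rps28 and 0.26 ± 0.11 for Rpl36 (SE), with an adjusted p of 0.906 for each. On the scale of the authors they were 0.38, 0.37, 0.36 and 0.38 (limma, adjusted p 0.733 to 0.760). With a block on the runs the adjusted p on that scale was 0.160 to 0.186, and without libraries 3, 7 and 8 it was 0.698 to 0.742.

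**Figure D5:**
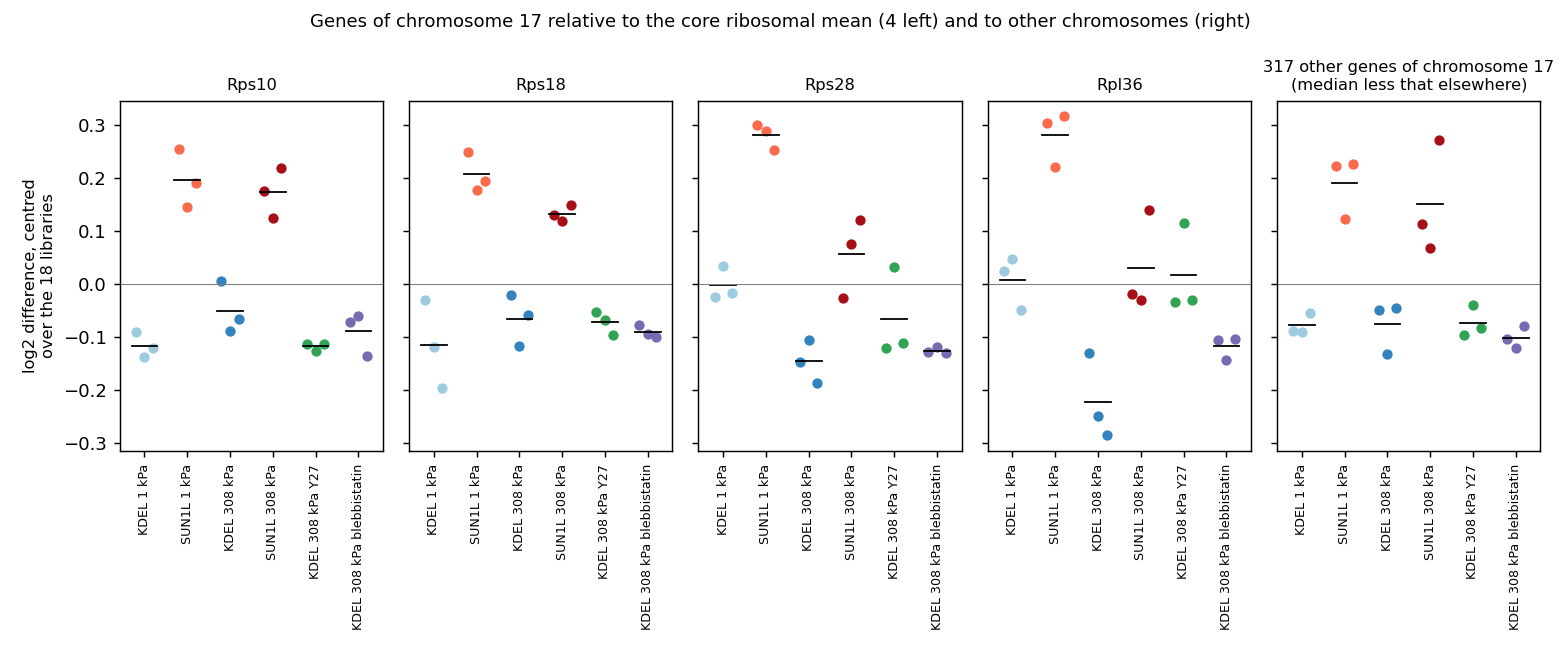
Log2 signal of Rps10, Rps18, Rps28 and Rpl36 relative to the mean of the core members, in the 18 libraries by group. The last panel shows the median of 317 other genes of chromosome 17 minus that of genes on other chromosomes. Rps10 and Rps18 are higher in the 6 SUN1L libraries (0.12 to 0.26) than in the 12 libraries of KDEL cells (-0.20 to 0.01), while Rps28 and Rpl36 overlap on 308 kPa.

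The next comparison asks what rigidity changes within a line. In KDEL cells, 72 members were higher and 13 lower on 308 kPa than on 1 kPa, with a median of 0.17 against -0.01 over all genes, and 0 were called (0% of all genes; 1.37% at an unadjusted p under 0.05). None had groups that did not overlap (2.13% of all genes higher, 2.65% lower). The core medians by run were 0.35 (72 of 77 higher), -0.07 (26) and 0.17 (72), and without libraries 3, 7 and 8 the median over the members was 0.06, with 57 higher. With 1 library left out it was 0.06 without library 8, 16 or 32, 0.26 without library 28 and 0.35 without library 20. The division markers had a median of -0.90, with 20 of 20 lower and none past the test, but 0.07 without library 8, with 14 of 20 higher.

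Rps27, a zinc-binding protein of the small subunit, had 6429, 5579 and 7594 on 1 kPa and 11589, 6379 and 9307 on 308 kPa. The difference of 0.45 ± 0.24 (SE; limma, adjusted p 1) was the largest of the core, and the groups overlapped in library 20. Rps15a, a small-subunit protein, had 11998, 9895 and 13208 against 19502, 11250.1 and 16489.7, a difference of 0.40 ± 0.23. Here too library 20 fell among the libraries on 1 kPa. At the other end, Rpl8, a protein of the large subunit, had 33798, 29147 and 36127 against 33622, 23539 and 37507, a difference of -0.09 ± 0.25.

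In SUN1L cells, 54 members were higher and 31 lower on 308 kPa, with a median of 0.08 against -0.01 over all genes, and 0 were called (0% of all genes; 1.93% at an unadjusted p under 0.05). Rps27l and Rps27rt were higher in every library on 308 kPa, 2 of 85 members against 1.69% of all genes, and 0 were lower (3.08% of all genes). Rps27l had 5015, 5245 and 5310.4 on 1 kPa and 5332, 5782 and 7230.5 on 308 kPa, a gap between the groups of under 1% of its level. Rps27rt, with 18.7, 8.5 and 17.5 against 19.9, 24.9 and 38.5, rests on few read pairs.

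Rps24 and Rps25, both of the small subunit, had the largest core differences in SUN1L cells, 0.40 ± 0.25 and 0.37 ± 0.23 (SE; limma, adjusted p 1). Rps24 had 22802, 19094 and 22539 on 1 kPa and 27682, 22172 and 36958 on 308 kPa, and library 19 lay below library 3. Rpl18 at -0.19 and Rps29, a zinc-binding small-subunit protein, at -0.18 ± 0.21 were lowest. The core medians by run were -0.18 (22 of 77 higher), -0.07 (29) and 0.41 (77). Without library 31 the median over the members was -0.13, with 24 higher, without library 15 it was 0.0004, without library 7, 19 or 27 it was 0.13 to 0.21, and without libraries 3, 7 and 8 it was 0.18.

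Rps27, Rps15a, Rps24 and Rps25 leaned to the stiff substrate in both lines. Their differences were 0.45, 0.40, 0.37 and 0.34 in KDEL cells and 0.35, 0.34, 0.40 and 0.37 in SUN1L cells. In a fit over both lines, added after these values were seen, they were 0.40, 0.37, 0.39 and 0.35 with an adjusted p of 1 for each (limma), and with a block on the runs the adjusted p was 0.374 to 0.424. Without libraries 3, 7 and 8 the differences were 0.36, 0.31, 0.35 and 0.37. In that fit 4 of 85 members had an unadjusted p under 0.05, and 25 with the block, against 2.91% and 8.7% of all genes. Without libraries 3, 7 and 8 there was 1, against 3.99% of all genes. Relative to the mean of the core members there were 3 (1.61% of all genes), 14 with the block (9.77%) and 0 without these libraries (1.07%). Core members move together, so these counts are not of separate findings. None passed an adjusted p under 0.05.

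The interaction asks whether SUN1L changes the response to rigidity. It was below 0 for 69 members and above 0 for 16, with a median of -0.07 against -0.004 over all genes, and 0 members passed (0% of all genes at an adjusted p under 0.05; 0.905% at an unadjusted one). Rplp0 was among the lowest, at -0.22 ± 0.39 (SE), and Rpl22l1 was highest at 0.19 ± 0.22. The 95% intervals reached 0.76 to either side for a typical core member. Without libraries 3, 7 and 8 the median was 0.13, with 84 of 85 above 0, so the sign changed without these libraries. With 1 library left out it ran from -0.30 without library 31 to 0.08 without library 19, and it was above 0 without library 8, 16, 19 or 32.

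The inhibitors of myosin activity were compared with the same untreated KDEL libraries on 308 kPa, so these comparisons share their controls. With Y27, 43 members were higher and 42 lower, with a median of 0.004 against 0.006 over all genes, which was -0.06 with quantile normalisation and with equal total signals, and 0 were called (0% of all genes; 6.05% at an unadjusted p under 0.05). With blebbistatin, 22 were higher and 63 lower, with a median of -0.06 against 0 over all genes, and 0 were called (0% of all genes; 4.21% at an unadjusted p under 0.05). None had groups that did not overlap in either, where 4.95% and 3.62% of all genes were higher and lower with Y27 and 3.66% and 3.55% with blebbistatin. Without library 34 the blebbistatin median was -0.11, with 11 higher and 73 lower.

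Both comparisons turned with the run. The core medians with Y27 were -0.26 in run 1 (7 of 77 higher), 0.30 in run 2 (74) and -0.03 in run 3 (29), and with blebbistatin they were -0.27 (5), 0.23 (77) and -0.16 (5). The untreated libraries of runs 1 and 2, 8 and 20, were the highest and the lowest of the KDEL cells. Without libraries 3, 7 and 8 the medians over the members were 0.11 with Y27 and 0.05 with blebbistatin, and without library 20 alone they were -0.20 with Y27 and -0.28 with blebbistatin. The division markers had medians of 0.85 with Y27 and 0.87 with blebbistatin, with 20 of 20 higher in each and none past the test. This rested on library 8, without which the medians were -0.11 and -0.07, and without library 34 the blebbistatin median was 0.73.

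Rps27 and Rps15a, the 2 core genes highest on the stiff substrate in KDEL cells, were the lowest of the core with Y27, both at -0.28. Rps27 had 7057, 6419.8 and 8432 with Y27 and 7354, 7039 and 7723 with blebbistatin, against 11589, 6379 and 9307 untreated. All 6 treated libraries lay below libraries 8 and 32 and above library 20. The differences were -0.28 ± 0.21 and -0.26 ± 0.21 (SE; limma, adjusted p 0.85 and 0.89), and without library 34 the second was -0.30. The rigidity and inhibitor comparisons share the untreated libraries on 308 kPa, so a high value there raises the first difference and lowers the second.

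At the other end, Rps29 was highest with Y27, at 0.25 ± 0.18 (SE; limma, adjusted p 0.85). It had 9277, 8277 and 9957 against 9238, 5856 and 8473 untreated, with library 24 below library 8. Rpl36 followed at 0.24 ± 0.19. With blebbistatin, Rpl8 was highest at 0.16 ± 0.23, with 32359, 29070.4 and 44026 against 33622, 23539 and 37507, but this place rested on library 34, without which the difference was -0.01. Rps2 followed at 0.12 ± 0.22, and at 0.01 without library 34. Rpl26, with Rps27, was lowest at -0.21, and at -0.22 without that library.

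Y27 and blebbistatin act at different steps, on the kinase that activates myosin and on myosin itself. Between them, 66 members were higher and 19 lower with Y27, with a median of 0.06 against 0.003 over all genes, and 0 were called (0% of all genes; 2.83% at an unadjusted p under 0.05). Rpl37a, Rpl36, Rpl35 and Rpl18, all of the large subunit, were higher with Y27 in every library, 4 of 85 members against 5.39% of all genes, and 0 were lower (4.24% of all genes). Their differences were 0.17 to 0.22, and for Rpl36, with 9245, 9460.4 and 10562 against 8733, 7619.6 and 9189.9, the 95% interval ran from -0.24 to 0.64. Without library 34 their differences were 0.20 to 0.27. Rpl14, also of the large subunit, was highest at 0.26 ± 0.21 (SE; limma, adjusted p 1), and at 0.34 without library 34. Without library 34 the median was 0.11, with 79 higher, without library 24 it was 0.13, without library 22 it was 0.002 and without library 36 it was -0.02, and by run the core medians were 0.01 (43 of 77 higher), 0.04 (48) and 0.13 (74).

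The paralogs differed among themselves, and none passed an adjusted p under 0.05 in a comparison of groups (limma). Relative to the mean of the core members and over both rigidities, SUN1L minus KDEL was below 0 for Rpl3l at -0.41, Rpl22l1 at -0.27, Rpl36al at -0.22, Rps27l at -0.20 and Rpl39l at -0.20. It was above 0 for Rpl7l1 at 0.03, Rps4l at 0.22 and Rps27rt at 0.31, and of these 8, Rpl3l, Rps4l and Rps27rt rest on few read pairs. Rpl39l, which resembles Rpl39 of the exit tunnel, had 6149, 5764 and 7726 in KDEL and 6157, 5787 and 6831 in SUN1L cells on 1 kPa, and 8254, 5823 and 8202 against 6038, 6035 and 8638 on 308 kPa. Its groups overlapped on both substrates. Rpl3l, at 4.7, 12.6 and 7.5 in untreated KDEL cells on 308 kPa and 1.0, 5.8 and 3.0 with Y27, was near the value of a few read pairs, and its differences of -1.20 with Y27 and -1.16 with blebbistatin, or -1.34 without library 34, were not distinguishable at this depth.

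Genes that act with the ribosomal proteins were not called in any comparison either. Fau and Gnb2l1 (Rack1), which encode ribosomal proteins under other names, differed by 0.22 to 0.23 in SUN1L cells on 1 kPa, and by -0.01 to 0.04 on 308 kPa. Of the 18 TOP translation factors, 10 lay lower in SUN1L than in KDEL cells on soft gels and 8 higher (median -0.01), and 11 were higher and 7 lower on stiff gels in KDEL cells, with a median of 0.05. Of the 77 biogenesis factors, 54 lay lower in SUN1L than in KDEL cells on soft gels and 23 higher (median -0.04), and 1 had an unadjusted p under 0.05. Of the 77 mitochondrial ribosomal protein genes, 22 were higher and 55 lower, with a median of -0.08. Among 20 regulators, Mlst8, a subunit of mTOR complexes, was highest in SUN1L cells, at 0.40 on 1 kPa and 0.29 on 308 kPa. With Y27 and blebbistatin the regulators with the largest differences were Myc, an activator of ribosome genes, at 0.46 and 0.39, and Mdm2, which Rpl5 and Rpl11 bind when assembly fails, at -0.49 and -0.55. Without library 34 the blebbistatin values were 0.35 for Myc and -0.40 for Mdm2. None of these passed an adjusted p under 0.05 (limma).

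Rpl5 and Rpl11, which carry the 5S ribosomal RNA into the large subunit, themselves stayed close together between groups. Rpl5 had 41643, 37761 and 49979 in KDEL and 46884, 38648 and 47147 in SUN1L cells on 1 kPa, a difference of 0.04 with a 95% interval from -0.50 to 0.58. Rpl11 had 18258, 14957 and 18858 against 16792, 15954 and 18609, a difference of -0.02 with an interval from -0.52 to 0.48. On 308 kPa the differences were 0.04 and -0.02, and the groups overlapped in each case.

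Other members with known roles differed little between SUN1L and KDEL cells on 1 kPa. Rpsa, which is also known as a laminin receptor, had a mean signal of 62744 over the 18 libraries, from 47224 in library 20 to 88969.9 in library 31, and a log2 difference of 0.10. Rps3, at the entry of the message channel, had a mean of 30467 and a difference of 0.11, and the X-linked Rps4x a mean of 42678 and a difference of 0.10. Rps14 and Rps19, both tied to human anaemias, had means of 19665 and 16143 and differences of 0.26 and 0.23. Rps26, near the exit of the message channel, differed by 0.13, and Rps27a, made as a fusion with ubiquitin, by 0.05. Of these, Rps4x and Rps27a differed most with rigidity, by 0.37 and 0.32 in KDEL cells and by 0.32 in SUN1L cells for both.

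In the large subunit, Rpl3, next to the peptidyl transferase centre, and Rpl4, of the exit tunnel, differed by 0.04 and 0.06 on 1 kPa, with mean signals of 46676 and 56476. Rpl23, which lies at the subunit interface, differed by 0.11 and Rpl39 by 0.10. Rpl41, the shortest of the proteins, differed by 0.02, and the stalk proteins Rplp1 and Rplp2 by 0.28 and 0.26. None of these had an unadjusted p under 0.05 in a single comparison of groups or the interaction without the block on runs (limma). Each was highest in library 31 except Rps4x and Rpl39, which were highest in library 8.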

How the data were processed

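Messenger RNA of 18 libraries was analysed. The authors aligned paired-end reads with TopHat2 2.0, filtered them by base quality, mapping quality, mates and duplicates, which bears on genes with near-identical copies, and deposited 1 signal per gene and library from AvadisNGS after scaling by the trimmed mean of M-values. Their methods name mm9, while the positions in the table are those of GRCm38. Columns were matched to libraries by their headings.

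From the deposited signal, log2(signal + 1) was fitted by limma (version 3.58.1, with trend, under R 4.3.3) to 16021 genes above 1 in at least 3 of 18 libraries. All tests were two-sided, with Benjamini-Hochberg adjustment over all genes tested. With 3 libraries against 3, an exact permutation test cannot go below 0.1, so limma was used. The labels number no replicates and state no pairing, and p-values measure the spread of these cultures. Named genes were, for each comparison, the 2 highest and 2 lowest members by log2 fold change among those above the median signal of tested genes, listed members with known roles, and the paralogs. A few genes that the rule or lists name are not reported here. Members named because their groups did not overlap, or for their chromosome, were chosen after their values were seen. Members and lists were chosen with earlier results of these data known. In simulated comparisons of SUN1L with KDEL cells on 1 kPa over 16021 genes, 71% of 4-fold, 32% of 2-fold and 2.5% of 1.5-fold changes were recovered. The simulation drew each gene independently, without runs or shared movement, and changed genes of all signal levels. These rates therefore do not describe the abundant members, which move together. MicroRNA libraries and spike-in controls were not used here.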

Additional observations from a re-analysis of the deposited data

How the results depend on the processing

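Alternatives were no filter, a mean signal of at least 10, pseudocounts of 8 and 0.1, quantile normalisation, equal total signals, no trend, array weights, 1 fit over 18 libraries, a block on runs, library 34 left out or counted as Y27, and each library left out. Of 1351 alternative values of 63 results, 1297 kept to the limits set for them and 54 moved beyond them. For a median the limit was a move of less than the replicate SD of 0.248 on the log2 scale. This is wider than any median of the members in the comparisons of groups, so a turn of sign could count as kept. Of 144 medians over the members in fits without 1 library, 13 turned sign. No alternative gave a member an adjusted p under 0.05 in a comparison of groups. The comparisons of runs, and the fits without libraries 3, 7 and 8 or relative to the core members, were added after the data were seen, as were division markers and regulators with libraries left out. The comparisons of runs moved: run 1 against run 2 gave 25 members, 0 without libraries 3, 7 and 8 and 1 to 47 with 1 library left out, and run 3 against run 1 gave 16, 4 without these libraries and 7 to 23 with 1 left out. The labels number no replicates and state no pairing, so the paired analysis was a replicate block on the runs of serial numbers, each with 1 library of every group, and it gave 0 members at an adjusted p under 0.05 in each comparison of groups. Without library 20, 10 members for rigidity in KDEL cells, 11 with Y27 and 21 with blebbistatin had an unadjusted p under 0.05. The medians turned sign for SUN1L on 308 kPa without library 20 (-0.16) or 31 (-0.15), for rigidity in SUN1L cells without 31 (-0.13), in the interaction without library 8 (0.02), 16 (0.03), 19 (0.08) or 32 (0.03), with blebbistatin without 8 (0.05), 22 (0.0006) or 32 (0.04), with Y27 without 20 (-0.20) or 36 (-0.07), and between Y27 and blebbistatin without 36 (-0.02). With array weights they turned for SUN1L on 308 kPa (-0.04), rigidity in SUN1L cells (-0.05) and blebbistatin (0.05). The causes were not tested. Members with a mean signal under 20, Rpl10l, Rps4l, Rpl3l and Rps27rt, rest on few read pairs.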
